A study of Mus musculus with 12 samples.

Results

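Hemoglobin and erythroid genes were followed as a measure of red blood cell RNA in the mammary tissue of mice. The set held 6 genes chosen by name, namely Hba-a1, Hba-a2, Hbb-bs, Hbb-bt, Alas2 and Slc4a1, out of 23704 gene names in the tables of normal tissue and tumor and 23691 in the tables of DMSO and C646 tumors. Of these 6 genes, 5 were found, in 4 rows. Hba-a1 and Hba-a2 shared a joined row, Hbb-bs was joined with the name Hbb-b1, and Hbb-bt had no row of its own or in a joined name and was skipped.

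RNA-seq of poly-A RNA was done in 12 samples of 4 groups, with 3 samples in each group, all from female mice aged 12 weeks. Each Normal sample pooled the abdominal and inguinal mammary glands of 3 untreated wild type FVB mice. Each Tumor sample was a tumor of the thoracic gland of 1 untreated MMTV-PyVT mouse, a heterozygous FVB transgenic that carries the polyoma virus middle T oncogene under the promoter of the mouse mammary tumor virus and develops mammary tumors. The DMSO and C646 samples were tumors of MMTV-PyVT mice injected with the solvent DMSO or with C646, an inhibitor of the histone acetyltransferase p300. Both groups carry a dose of 1 mg/kg in the labels. For these 2 groups the largest tumors were taken, so tumors were selected by size. Tissue, gland position and pooling all differed between Normal and Tumor, and their effects cannot be told apart.

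Hemoglobin carries oxygen in red blood cells and is built from alpha chains, made by Hba-a1 and Hba-a2, and beta chains, made in the adult mouse by Hbb-bs and Hbb-bt. Its heme is made in a pathway that starts in red cell precursors with the enzyme Alas2, and Slc4a1, also called band 3, is the anion exchanger of the red cell membrane. Mature mouse red cells have lost their nucleus and reticulocytes, the youngest circulating cells, still hold globin mRNA, so globin mRNA in a solid tissue is often taken as a sign of the blood it holds. Globin mRNA has also been described in cells outside the red lineage.

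Long parts of the coding sequences of the paired globin genes are identical, and the sequences below show how little separates them. Over the 429 coding bases of each alpha gene, Hba-a1 and Hba-a2 differed at 1 position, written C381T with the base of Hba-a1 first and counted from the start of the coding sequence. Over 444 coding bases Hbb-bs and Hbb-bt also differed at 1 position, C417T. Of the 330 windows of 100 bases in the Hba-a1 coding sequence, 281 were present in Hba-a2, and 317 of 345 windows of Hbb-bs were present in Hbb-bt. Untranslated parts were not compared, and the reads of the study were longer and paired. How many of its reads fit both genes of a pair was therefore not tested. No window of 25 bases of Hba-a1 was found in Hbb-bs or in Hbq1b, a theta globin gene that lies between the alpha genes. The stretches around the differences, from the GENCODE vM21 transcripts, are printed 5′ to 3′ with the differing base in capitals. They cover coding bases 351 to 411 of the alpha genes and 387 to 444 of the beta genes.
Hba-a1: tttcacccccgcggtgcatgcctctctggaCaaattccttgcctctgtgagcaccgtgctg
Hba-a2: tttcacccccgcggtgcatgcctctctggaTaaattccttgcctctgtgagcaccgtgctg
Hbb-bs: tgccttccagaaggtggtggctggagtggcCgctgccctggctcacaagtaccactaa
Hbb-bt: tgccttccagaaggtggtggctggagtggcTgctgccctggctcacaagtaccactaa

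In the GRCm38 genome, which is the mm10 build of the authors, Hba-a1 was annotated at chr11:32283511-32284465 and Hba-a2 at chr11:32296489-32297298, both on the plus strand, with Hbq1b between them at chr11:32286965-32287784. Hbb-bs lay at chr7:103826534-103828096 and Hbb-bt at chr7:103812524-103813996, both on the minus strand. Alas2 lay at chrX:150547375-150570638 on the plus strand and Slc4a1 at chr11:102348824-102366203 on the minus strand. All are protein coding genes. Because the reads were from a kit that does not mark the strand, overlapping genes on opposite strands cannot be told apart.

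The promoters of an alpha gene, a beta gene and Alas2 are shown because these genes are compared as 1 group below. Each covers the 200 bases before the RefSeq start in GRCm38.p6, on the strand of the gene, and the capitals mark 4 motifs searched on both strands. The first is GATAA, the core of sites for factors such as Gata1. The second is CACCC, the core of sites for factors such as Klf1. The third is the CCAAT box and the last, ATATAA, is a form of the TATA box. No motif overlapped another in these windows. The windows are chr11:32283472-32283671 for Hba-a1, chr7:103827929-103828128 on the minus strand for Hbb-bs and chrX:150547217-150547416 for Alas2.
Hba-a1: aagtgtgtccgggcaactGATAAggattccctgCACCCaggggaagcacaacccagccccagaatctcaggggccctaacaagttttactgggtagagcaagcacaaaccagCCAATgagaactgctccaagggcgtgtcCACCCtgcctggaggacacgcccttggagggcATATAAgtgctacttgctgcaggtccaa
Hbb-bs: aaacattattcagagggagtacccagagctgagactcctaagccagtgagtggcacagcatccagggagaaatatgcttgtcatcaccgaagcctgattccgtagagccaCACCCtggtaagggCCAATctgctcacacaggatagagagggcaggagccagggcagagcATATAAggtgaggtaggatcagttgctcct
Alas2: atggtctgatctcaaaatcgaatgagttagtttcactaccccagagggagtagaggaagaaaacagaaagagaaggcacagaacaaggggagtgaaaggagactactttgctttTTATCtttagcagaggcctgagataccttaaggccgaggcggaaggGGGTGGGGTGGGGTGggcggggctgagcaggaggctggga

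CACCC was present in all 3 windows, CCAAT and ATATAA in those of Hba-a1 and Hbb-bs, and GATAA in those of Hba-a1 and Alas2, where Alas2 carried it on the other strand. Among 27025 RefSeq promoters of this length, 44.9% held CACCC, 30.0% held CCAAT, 18.4% held GATAA and 7.63% held ATATAA. A match shows only that the letters are present. The Hba-a1 and Hba-a2 promoters matched at 197 of 197 bases when aligned with an offset of 3. RefSeq promoters were matched for 5 of the 6 genes, all but Slc4a1.

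The first question was whether the hemoglobin and erythroid genes differ between mammary tumor and normal mammary gland. The joined row of Hba-a1 and Hba-a2 was lower in tumor, at 353 ± 72.3 FPKM in Normal (SD, n = 3) and 129 ± 48.4 FPKM in Tumor (SD, n = 3), but the call was lost when the neighboring Hbq1b row was added to it. FPKM is the number of fragments of a gene divided by the length of the gene and scaled to the number of mapped fragments. Hbb-bs and Alas2 had lower means in tumor and did not pass the test, and Slc4a1 was close to 0 in both groups. In bulk tissue, fewer cells of a type and less RNA per cell cannot be told apart.

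The joined alpha globin row, Hba-a1 and Hba-a2, had 351, 426 and 282 FPKM in Normal replicates 1, 2 and 3, against 123, 181 and 84.4 FPKM in the Tumor replicates. All Tumor samples lay below all Normal samples. On the log2(FPKM + 2^-5) scale the Tumor mean fell by 1.50 (SE 0.29, 95% interval -2.19 to -0.80), with an adjusted p of 0.00366 in limma with Benjamini-Hochberg adjustment. The ratio of the group means was 2.73. The exact two-sided permutation test gave p = 0.1, the smallest it can give with 3 samples against 3.

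The row of Hbb-bs, which carries most of the beta globin signal beside a lower row of Hbb-b2, had 193, 114 and 120 FPKM in Normal. In Tumor it had 80.2, 177 and 82.8 FPKM. Tumor replicate 2 lay within the Normal range, so the groups overlapped. The difference on the log2 scale was -0.39 (SE 0.35, 95% interval -1.21 to 0.43) with an adjusted p of 0.365 in limma, and the exact permutation test gave p = 0.5. Without Tumor replicate 2 the difference was -0.76 with an adjusted p of 0.0393 in limma. That tumor had the highest alpha value of the Tumor group as well.

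Alas2, the first enzyme of heme synthesis in red cell precursors, had 6.57, 2.49 and 4.02 FPKM in Normal and 2.26, 2.45 and 2.06 FPKM in Tumor. The groups did not overlap, but Normal replicate 2 and Tumor replicate 2 were almost equal. The difference was -0.84 on the log2 scale (SE 0.35, 95% interval -1.65 to -0.02) with an adjusted p of 0.0708 in limma, and the exact permutation test gave p = 0.1. Alas2 passed the threshold without Normal replicate 2, at -1.18 with an adjusted p of 0.0158 in limma. It also passed after rescaling every sample to the same total, at -1.09 with an adjusted p of 0.0459 in limma. In this rescaling, here and below, the total was taken over the named genes without the alpha row and the row of Hbb-bs.

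Slc4a1, the anion exchanger of the red cell membrane, had 0.0906, 0.0314 and 0.0195 FPKM in Normal and was listed at 0, 0.138 and 0.0414 FPKM in Tumor. These values are far below the minimum of 1 FPKM in 3 samples that a gene had to reach to be tested. No test was therefore made, and with no read counts in the files it was not detectable at this depth whether Slc4a1 differed. In total 1 of the 3 tested rows was called, against a background of 60.5% of the 13031 genes tested in this comparison, of which 31.7% were lower and 28.8% higher. With 7886 genes called, a call in 1 of 3 rows is not a result about these genes as a set. The groups did not overlap in 2 of the 3 rows, against 68.9% of all genes tested, or 35.8% in the lower direction. When every sample was rescaled to the same total, the median of all genes moved to -0.29 on the log2 scale and the split of calls to 2803 higher and 5153 lower, and the alpha row was at -1.75. The 3 tested rows were lower in Tumor under all 3 alternative scalings.

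**Figure D1:**
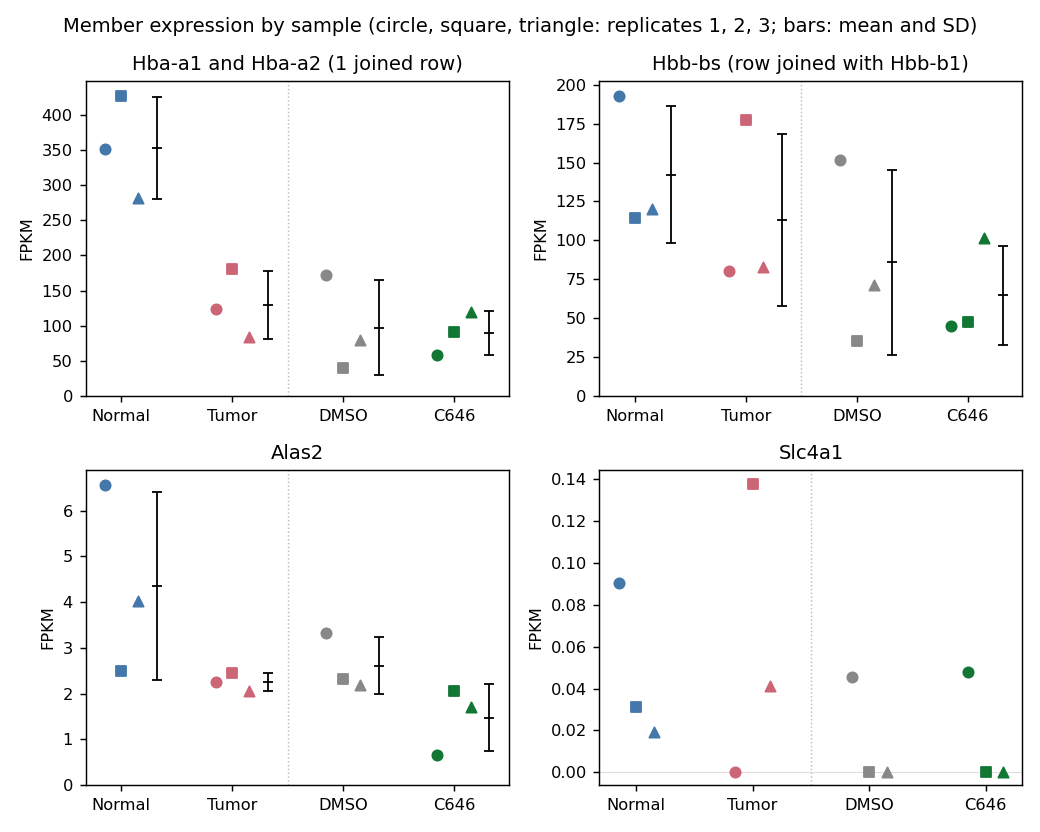
FPKM (vertical axes) of the 4 member rows in each of the 12 samples, by group (horizontal axes). Circles, squares and triangles are replicates 1, 2 and 3, bars give the mean and SD of 3 samples, and the dotted line separates the 2 experiments. The Normal samples lie above all Tumor samples for the alpha row, at 282 to 426 against 84.4 to 181 FPKM, and the DMSO and C646 samples overlap for the alpha and beta rows. No mean is drawn for Slc4a1, which was listed at 0 in several samples.

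The alpha and beta rows were also compared with each other within each sample. The alpha to beta ratio, the Hba row divided by the row of Hbb-bs, was 1.82, 3.74 and 2.35 in Normal and 1.54, 1.02 and 1.02 in Tumor. The ratio was higher in all Normal samples than in all Tumor samples, with a log2 difference of -1.11 and an exact permutation p of 0.1, the smallest this design allows. This ratio was chosen after the values had been seen. Adding the Hbb-b2 row, another adult beta gene by name, to the beta row left the log2 difference at -1.07.

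Hbq1b, whose gene lies between the alpha genes, was listed at 162, 168 and 99.0 FPKM in Normal and at 137, 245 and 108 FPKM in Tumor, and at 0 in all 6 DMSO and C646 samples. The groups overlapped for Normal and Tumor, and the log2 difference of 0.14 (SE 0.34) had an adjusted p of 0.736 in limma. The Hbq1b mean was 143 FPKM in Normal and 163 FPKM in Tumor, against 353 and 129 FPKM for the alpha row. Hbq1b was thus well below the alpha row in Normal and not in Tumor. It had values above 0 in the tables of 1 experiment only. When the Hbq1b row was added to the alpha row, the sums were 513, 594 and 381 FPKM in Normal and 260, 425 and 192 FPKM in Tumor, and the groups overlapped. The difference was then -0.82 on the log2 scale (SE 0.32) with an adjusted p of 0.0565 in limma, so the only call among the member rows was lost. The alpha to beta ratio also overlapped between groups when Hbq1b was added, at 2.66 to 5.20 in Normal and 2.32 to 3.24 in Tumor, with a log2 difference of -0.43 and an exact permutation p of 0.3. This check was chosen after seeing the values, and which genes gave the reads in the Hbq1b row was not tested.

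**Figure D2:**
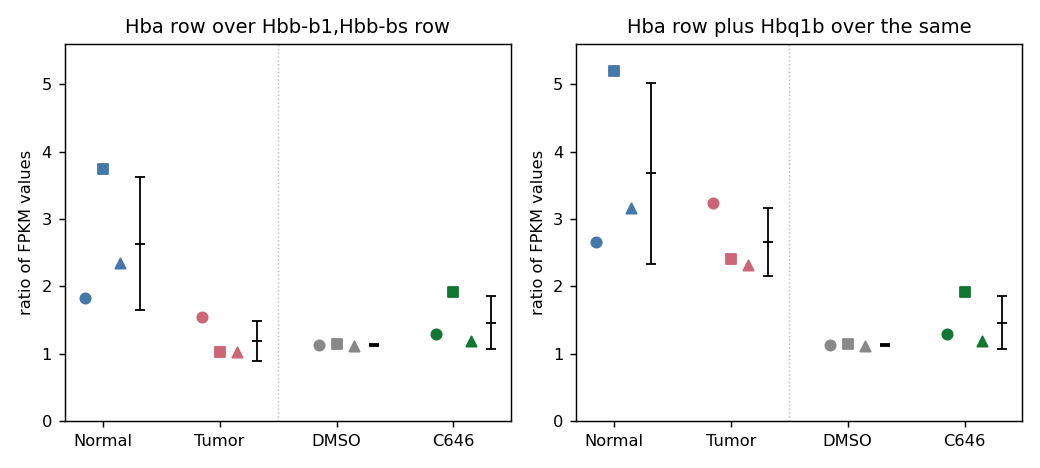
Ratio of alpha to beta globin FPKM (vertical axes) in each of the 12 samples, by group. Left, the joined Hba row over the row of Hbb-b1 and Hbb-bs, where Normal lies at 1.82 to 3.74 and Tumor at 1.02 to 1.54. Right, the same with the Hbq1b row added to the Hba row, where Normal and Tumor overlap. Symbols are replicates and bars give the mean and SD of 3 samples.

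The second question was whether C646, which is given to lower the activity of p300, changed the hemoglobin and erythroid genes in tumors. None of the 3 tested rows was called, and none of the 12083 genes tested was called in limma, so the background was 0% and 384 genes had an unadjusted p under 0.05. For the alpha and beta rows the 95% intervals reached beyond 1 on the log2 scale in both directions, so that a 2-fold change either way was within them. The DMSO group itself spread over a 4.28-fold range of summed globins.

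The alpha row of Hba-a1 and Hba-a2 had 171, 40.1 and 79.3 FPKM in the DMSO replicates and 58.1, 90.7 and 120 FPKM in the C646 replicates. The C646 samples lay inside the range of the DMSO samples. The difference was 0.07 on the log2 scale (SE 0.52, 95% interval -1.17 to 1.31), with an adjusted p of 0.999 in limma and p = 0.9 in the exact permutation test. Without DMSO replicate 2 the difference turned to -0.44, and without C646 replicate 3 to -0.17.

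The row of Hbb-bs had 151, 35.3 and 71.3 FPKM in DMSO and 45.0, 47.5 and 102 FPKM in C646. The order of the samples was the same as for the alpha row in both groups, with DMSO replicate 1 highest and replicate 2 lowest. The difference was -0.27 on the log2 scale (SE 0.55, 95% interval -1.58 to 1.04), with an adjusted p of 0.99 in limma and p = 0.7 in the exact permutation test. Without DMSO replicate 1 it turned to 0.26.

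Alas2 had 3.32, 2.31 and 2.18 FPKM in DMSO and 0.663, 2.07 and 1.70 FPKM in C646. All C646 samples lay below all DMSO samples, a pattern that 4.52% of the genes tested in this comparison showed in this direction and 8.56% in either direction. The difference was -0.93 on the log2 scale (SE 0.47, 95% interval -2.06 to 0.20), with an adjusted p of 0.99 in limma and an exact permutation p of 0.1, the smallest possible. C646 replicate 1 was the farthest from the others, and without it the difference was -0.44. Slc4a1 had 0.0457 FPKM in DMSO replicate 1 and 0.0477 FPKM in C646 replicate 1 and was listed at 0 in the other 4 samples, so it was not tested.

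The alpha to beta ratio was 1.13, 1.14 and 1.11 in DMSO and 1.29, 1.91 and 1.18 in C646. Every C646 sample had a ratio above every DMSO sample, with a log2 difference of 0.34 and an exact permutation p of 0.1. The 3 DMSO ratios agreed closely although their alpha levels differed 4.27-fold. With the Hbb-b2 row added to the beta row the DMSO ratios agreed less closely, at 0.961, 0.831 and 0.947. The log2 difference between the groups was then 0.44. Without C646 replicate 2, which had the highest ratio of the group, it was 0.13 for the beta row alone.

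**Figure D3:**
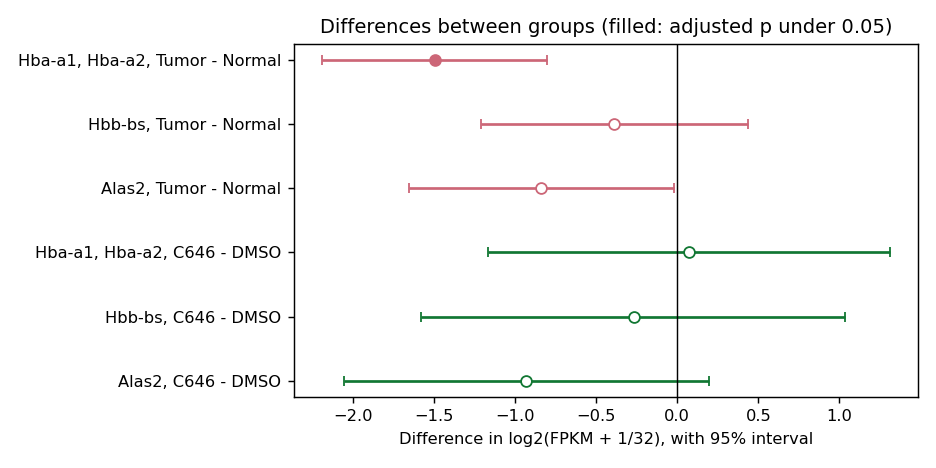
Difference in log2(FPKM + 1/32) between Tumor and Normal (red) and between C646 and DMSO (green) for the 3 tested member rows, with 95% intervals from limma. A filled point has an adjusted p under 0.05. The alpha row in tumor, at -1.50, is the only filled point, and the intervals for the alpha row, the beta row and Alas2 under C646 all span 0.

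The levels of the member rows in the 4 groups can be set side by side, with the limit that the 2 experiments came as separate tables with different rows, 26220 for Normal and Tumor and 24304 for DMSO and C646, and that Hbq1b had values above 0 only in the first. The part of the tables in the order between the experiments was not tested. The mean of the alpha row was highest in Normal at 353 FPKM, followed by Tumor at 129, DMSO at 96.9 and C646 at 89.6 FPKM. The samples of Normal and Tumor did not overlap, and those of Tumor, DMSO and C646 overlapped between neighbors. With the Hbq1b row added to the alpha row this changed, since Normal and Tumor then overlapped and Tumor, at 192 to 425 FPKM, lay above DMSO, at 40.1 to 171 FPKM. For the row of Hbb-bs the means ran in the same order at 142, 113, 86.0 and 64.7 FPKM, and all neighbors overlapped. For Alas2 the means were 4.36 FPKM in Normal, 2.60 in DMSO, 2.25 in Tumor and 1.47 in C646, and all neighbors overlapped.

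Summed over the alpha row and the beta row of Hbb-bs, the globins made up 0.0712% to 0.0988% of all FPKM in Normal, 0.0260% to 0.0522% in Tumor, 0.0136% to 0.0564% in DMSO and 0.0186% to 0.0421% in C646. The log2 difference of the summed globins was -1.09 between Tumor and Normal, or -0.72 with the Hbq1b row added, and -0.07 between C646 and DMSO, which turned to 0.04 under quantile normalization and to 0.05 when the samples were rescaled to the same total. It was 0.46 without DMSO replicate 1 and -0.59 without DMSO replicate 2, so its direction depended on which of these tumors was included.

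Within groups, the member rows varied together to different degrees. Deviations from the group mean over all 12 samples had a Pearson r of 0.87 and a Spearman rho of 0.82 between the alpha row and the row of Hbb-bs. Alas2 had a Pearson r of 0.41 with the alpha row and 0.50 with the row of Hbb-bs. These values describe 12 samples that share a library size scaling between genes, and no test was made on them.

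The 10 genes whose deviations were most like those of the summed globins were found among 13232 gene names, leaving out the member rows. They were Filip1, Cyfip2, Agtrap, Atg9a, Stc2, Gtf2e2, Asb13, Dnajc25, Ccdc25 and Tfpi, with Pearson r from 0.94 to 0.87 over 12 samples. No globin or red cell gene was among them. When the 2 samples farthest from the median were left out, r ranged from 0.62 for Ccdc25 to 0.93 for Agtrap. The first in the order, Filip1 and Cyfip2, had means of 1.45 and 11.6 FPKM in Normal and at most 0.267 and 0.730 FPKM in the tumor groups, so most of their deviations were among values near the floor and no weight is given to their rank. The beta row named Hbb-b2, which was not a member, had r = 0.79, above 99.4% of all genes.

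The other genes of the red cell program were described from lists of other globins, heme synthesis, the red cell membrane, erythroid transcription factors, erythropoietin and iron uptake, and late red cell genes. Of 83 symbols, 76 had a row outside the member rows and 48 reached the minimum level in Normal and Tumor. Of these, 13 were higher and 14 lower in Tumor, or 27.1% and 29.2%, close to the 28.8% and 31.7% of all genes tested. The median log2 difference was 0.11 for the lists and -0.02 for all genes. In C646 against DMSO, 43 genes were tested and 0 were called in limma, with a median log2 difference of -0.03 beside -0.02 for all genes. The median of the lists in Tumor against Normal changed sign with the scaling, from 0.04 under median ratio scaling to -0.03 under quantile normalization and -0.15 after rescaling to the same total. No call in any list of this report was lost under these 3 scalings.

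Of the 4 other globins tested in Tumor against Normal, 1 was higher and 1 was lower. Mb, the oxygen store of muscle, rose from 2.50, 3.06 and 3.07 FPKM in Normal to 64.0, 38.4 and 36.8 FPKM in Tumor, a log2 difference of 3.96 (SE 0.24, adjusted p 2.79e-05 in limma). Cygb, cytoglobin, fell by 2.60 on the log2 scale (SE 0.32, adjusted p 0.000454 in limma). Hbb-b2, named after its values were seen, had 30.3, 17.5 and 17.7 FPKM in Normal and 11.3, 23.3 and 8.20 FPKM in Tumor, with a log2 difference of -0.70 and an adjusted p of 0.165 in limma. Embryonic globins Hba-x and Hbb-bh1 were listed at 0 in every sample of both experiments.

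Of the 12 heme synthesis genes tested in Tumor against Normal, 3 were lower. Alas1, the form of the first enzyme used in most tissues, fell by 2.04 on the log2 scale (SE 0.18, adjusted p 0.000113 in limma), from 56.9 to 76.6 FPKM in Normal to 14.2 to 20.2 FPKM in Tumor. Fech, which inserts iron into the ring, fell by 1.33 and Alad by 0.74, with adjusted p of 0.000288 and 0.0151 in limma. The ratio of Alas1 to Alas2 was 8.67, 30.7 and 17.2 in Normal and 8.94, 6.21 and 6.91 in Tumor.

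Of the 8 red cell membrane genes tested, 3 were lower and 4 higher in Tumor. Dmtn, an actin-bundling protein of the red cell skeleton, fell by 4.90 and Gypc, glycophorin C, by 4.40 on the log2 scale, with adjusted p of 0.000211 and 3.4e-05 in limma. In Tumor Dmtn had 0.177 to 0.649 FPKM and Gypc 0.606 to 1.19 FPKM, so the sizes of these falls rest on low values. Aqp1, a water channel of red cells and capillaries, fell by 2.29 (adjusted p 9.01e-05 in limma). Sptb, beta spectrin, rose by 2.77 and Bsg, basigin, by 0.96, with adjusted p of 0.000338 and 0.00219 in limma. Rhag, a defining marker of the red cell membrane, was listed at 0 in all Normal and Tumor samples.

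Of the 5 erythroid factor genes tested, Lmo2 fell by 1.41 and Ikzf1 by 2.54 on the log2 scale, with adjusted p of 0.00157 and 2.53e-05 in limma, and both are also made in vessels or white blood cells. Gata1, the master regulator of the lineage, had 0.438 to 0.839 FPKM in Normal and was listed at 0 in all 3 Tumor samples and all 6 samples of the second experiment, under the minimum to be tested. Klf1, a factor that drives the beta globin gene, had the higher mean in Tumor. It had 0.182, 0.149 and 0.276 FPKM in Normal and 0.903, 0.266 and 0.619 FPKM in Tumor. The groups overlapped for Klf1, which was also under the minimum to be tested.

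Of the 9 genes of erythropoietin signaling and iron uptake, 3 were higher and 3 lower in Tumor. Epor, the erythropoietin receptor, fell by 3.41 and Tfrc, the transferrin receptor, rose by 2.25 on the log2 scale, with adjusted p of 0.000625 and 0.00221 in limma. The size of the fall of Epor rests on Tumor values of 0.212 to 0.814 FPKM. Fam132b, the hormone erythroferrone made by erythroblasts, rose by 3.51 (adjusted p 0.00143 in limma) from at most 0.348 FPKM in Normal to at most 2.21 FPKM in Tumor. Only the Tumor samples reached the minimum of 1 FPKM, so the size of its rise rests on Normal values below that. Of the 10 late red cell genes, 4 rose and 2 fell, among them Car2 at 2.22, Gpx1 at 1.18 and Cat at -2.07 on the log2 scale, with adjusted p of 0.000226, 0.00383 and 6.41e-05 in limma.

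Among the tumors of the second experiment, the most abundant red cell membrane genes on the lists followed the globins in DMSO replicate 1. Bsg had 1381, 509 and 962 FPKM in DMSO and 569, 468 and 441 FPKM in C646, with a log2 difference of -0.84 and an adjusted p of 0.99 in limma. Slc2a1, the glucose transporter of red cells and of many other cells, had 178, 49.2 and 121 FPKM in DMSO and 71.2, 59.1 and 48.4 FPKM in C646, with a log2 difference of -0.79 and an adjusted p of 0.99 in limma. In DMSO the order of the replicates was that of the alpha row for both genes, while in C646 it was the reverse. The part of these genes' source cells in the globin values was not tested.

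**Figure D4:**
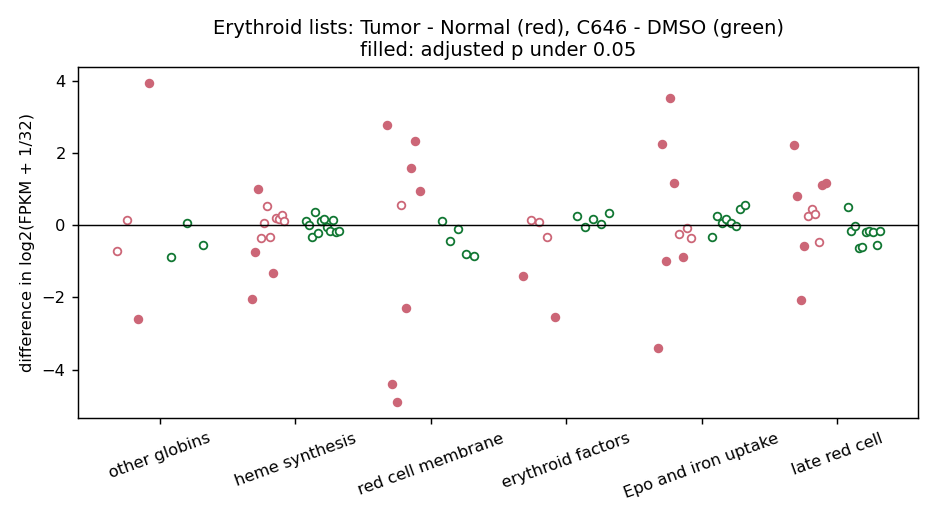
Difference in log2(FPKM + 1/32) for each tested gene of the 6 erythroid lists (vertical axis), for Tumor minus Normal (red) and C646 minus DMSO (green). Filled points have an adjusted p under 0.05 in limma, and there are 27 of these in red and 0 in green. Red points lie on both sides of 0 in all 6 lists.

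Markers of other tissues and blood cells were set beside the 60.5% of all genes called between Normal and Tumor, 31.7% lower and 28.8% higher. All 12 endothelial genes were lower in Tumor, against 31.7% of all genes, with a median log2 difference of -2.41, and their summed FPKM ran from 251 to 288 in Normal and from 43.1 to 71.9 in Tumor. All 10 adipocyte genes were lower, at a summed 27035 to 34038 FPKM in Normal and 143 to 2532 in Tumor, highest in Tumor replicate 1. Without that tumor the alpha row was at -1.50, with an adjusted p of 0.00878 in limma. The tumors kept in that fit had less adipocyte RNA than the tumor left out. The part of fat in the alpha row was not tested. Of 3 platelet genes tested 2 were lower, or 66.7% called, near the 60.5% of all genes. The platelet sum was 60.2 to 83.1 FPKM in Normal and 21.8 to 24.8 in Tumor, while Gp6 and Treml1 were listed at 0. Most of the Normal sum was Pf4, at 48.9 to 66.0 FPKM in Normal and 3.44 to 12.1 FPKM in Tumor. Gp1bb was read from a row joined with Sept5, at 6.57 to 11.6 FPKM in Normal and 10.6 to 17.4 FPKM in Tumor, and was not called. Of 10 macrophage genes 6 were lower and 1 higher, or 70% called, not far above the share of all genes. Their sum was 1173 to 1379 FPKM in Normal and 598 to 958 FPKM in Tumor.

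Of 11 genes that clear hemoglobin and heme, 8 were lower and none was higher, or 72.7% lower against 31.7% of all genes. Their sum was 4143 to 5085 FPKM in Normal and 3604 to 6625 FPKM in Tumor. Most of it was Fth1, with means of 2296 and 3512 FPKM, and Ftl1, with means of 1681 and 1625 FPKM. Neither of these was called, so the sum does not follow the genes that were. Of 12 mammary epithelial genes 8 were higher, or 66.7% against 28.8% of all genes. Their sum was 539 to 1350 FPKM in Normal and 3300 to 15441 FPKM in Tumor. The highest sum was in Tumor replicate 2 and came mostly from Csn2 at 9504 and Wap at 2999 FPKM. Csn2 was not called, with an adjusted p of 0.155 in limma. Of 7 neutrophil genes 3 were higher and 2 lower, or 71.4% called, not far above the 60.5% of all genes. Their sum was 154 to 209 FPKM in Normal and 8164 to 13046 FPKM in Tumor. It was led by Lcn2, which mammary epithelium also makes. The part of these differences in the lower alpha row was not tested. In C646 against DMSO none of these genes was called in limma, and the endothelial sum was 58.7 to 95.03 FPKM in DMSO and 57.8 to 74.3 FPKM in C646. The adipocyte sum was 19.9 to 82.8 FPKM in DMSO and 109 to 637 FPKM in C646, and its part in the Alas2 values was not tested.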

How the data were processed

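The authors trimmed adapters with cutadapt, mapped the reads to mm10 with TopHat (2.1.1) and deposited FPKM values from Cufflinks (2.2.1) for each sample, with versions from the submitters' processing notes. FPKM is normalized to gene length and library size, and read numbers were not in the files. Here FPKM was added up over rows of 1 name, and symbols without their own row were read from a comma-joined row. Of the Normal and Tumor rows, 1837 had no name and were left out, with 3.41% to 4.56% of all FPKM. The test was limma (3.58.1, R 4.3.3) with a variance trend on log2(FPKM + 2^-5), run on all genes that reached 1 FPKM in 3 or more samples of a comparison, and p-values were adjusted by Benjamini-Hochberg with a threshold of 0.05. The pseudocount makes the fold changes of low genes smaller. The script was tested on simulated data. The summed FPKM per sample was 526854.9 to 783718.6, and 12052 to 13023 rows reached 1 FPKM.

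Single values were compared with an exact two-sided permutation test (scipy 1.17.1), whose smallest p is 0.1. Nothing in the labels says that same-numbered samples belong together, so they were not treated as pairs. From each list, the genes to be named were the 3 with the largest change among those called and the 2 with the highest level, of which the report gives those a comparison turns on. Defining markers at or near 0 are named besides. Single values of some list genes are not reported here. The members and lists were chosen with earlier results of these data known. Sequences came from RefSeq promoters (GRCm38.p6) and GENCODE vM21 transcripts, in which the longest reading frame was taken as coding. The alternatives were other pseudocounts, scalings, filters, variance models, rules for repeated names, a replicate block and leaving out each replicate.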

Additional observations from a re-analysis of the deposited data

How the results depend on the processing

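Without read counts and with 3 samples a group, the precision of these genes was limited by the spread between samples, which within a group reached 4.27-fold for the alpha row and 4.29-fold for the row of Hbb-bs, both in DMSO. In Tumor against Normal, the log2 difference of the Hba-a1 and Hba-a2 row was past the threshold under every other alternative run, and went to -0.82 with an adjusted p of 0.0565 in limma when the Hbq1b row was added, where 0 member rows were called and the alpha to beta ratio was -0.43. That alternative was chosen after seeing the data, and the cause was not tested. Rescaling to the same total called 2 member rows, with Alas2 at -1.09. Leaving out 1 replicate at a time gave -0.76 to -0.15 for Hbb-bs, past the threshold without Tumor replicate 2, and -1.18 to -0.49 for Alas2, past it without Normal replicate 2. The same step gave 1 to 2 member rows called and 2570 to 4172 genes called lower, with 2686 without Normal replicate 2 and 2570 without Normal replicate 3.

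In C646 against DMSO, leaving out 1 replicate gave -0.44 to 0.61 for the Hba-a1 and Hba-a2 row and -0.79 to 0.26 for Hbb-bs, and 0 to 12 genes called lower, the 12 without DMSO replicate 2. Without a filter on low values 6 genes were called higher and 9 lower, and the fit of all 12 samples called 1 higher. Slc4a1 was tested only without the filter, where its log2 differences were -0.004 in Tumor against Normal and 0.01 in C646 against DMSO, both with an adjusted p of 1.0 in limma. Hbb-bt had no row.

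Same-numbered samples did not deviate together in every pair, with correlations of -0.04, -0.10 and 0.01 for Normal and Tumor and 0.175, 0.07 and 0.11 for DMSO and C646. With the replicate block the Hba-a1 and Hba-a2 row was at -1.50 with an adjusted p of 0.00211 in limma, and 3439 genes were called higher and 3827 lower. The block changed the call of no member row.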
